A study of Xenopus laevis with 6 samples.

Results

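Genes for enzymes and complexes that mark, read or move nucleosomes were examined in EU-labelled RNA of Xenopus laevis embryos around genome activation. The set was defined by symbol and a minimum mean value, and was chosen with earlier results of these data known. It holds every entry with a mean normalized value of at least 12 over the 6 libraries whose name starts with kdm, kmt, dnmt, tet, hdac, setd, ezh, suz12, eed, smarc, chd, brd, ep300, crebbp, kat, supt16h or ssrp1, where tet, chd, brd and kat are followed by a digit. Of 148 matching entries in a table of 50489, 137 passed the minimum. They came from 86 gene names. Xenopus laevis is allotetraploid and often keeps a gene on both subgenomes, written L and S; 74 members were L copies and 63 were S copies.

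The 6 libraries formed 3 groups of 2. Wild type blastula embryos were collected at 5 hours post fertilization (hpf) and at 7.5 hpf, and the other group had been kept from 5 to 7.5 hpf in 0.2 mg/ml cycloheximide (CHX), which blocks translation. All 3 groups, controls included, had been injected as 1-cell embryos with 10 nl of 50 mM 5-ethynyl uridine (EU), a label that enters new RNA, giving about 0.5 mM inside the embryo. The replicates came from 1 clutch and the labels place all libraries in 1 experiment, so the spread measured here is between samples of that clutch. Whole embryos were used, so fewer cells of a type and less RNA per cell cannot be told apart.

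In the cleavage-stage frog embryo, chromatin is assembled largely with proteins and mRNAs stored in the egg, and the zygotic genome is switched on at the mid-blastula transition as the cell cycle lengthens. Writers add acetyl or methyl groups to histones, erasers remove them, readers such as bromodomain proteins bind the marks, and remodelers use ATP to slide or evict nucleosomes. DNA methylation is copied at each replication by the maintenance enzyme Dnmt1.

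Summed values per library were 6680033 to 7742693, and the members supplied 1.98% to 2.4% of them, least in control 7.5 hpf replicate 1. From the spacing of low values, 1 read was worth about 1.84 and 2.3 units in the 5 hpf libraries, whose smallest value above 0 was 2 against 1 in the other 4. Across genes, which are not independent replicates, Pearson's r between the libraries of a group was 0.853 for the older controls, 0.921 for the younger ones and 0.927 for CHX. The 19 entries for blastula marker genes summed to 19689 to 55018 per library and 18 entries for differentiated tissues to 9 to 93, 10 of them at 0 throughout. Of the blastula genes, gdf1 (Vg1) had low entries, none above 45. The sox2.L entries were also low at 5 hpf, at 0 and 0 and at 29 and 0. In the 7.5 hpf controls they stood at 33 and 17 and at 205 and 51, and under CHX at 193 and 158 and at 521 and 515. The oocyte linker histone gene h1-8.S, whose mRNA is stored before EU could be given, stood at 2482 to 2900 in every library. Because EU was given at the 1-cell stage, RNA at 7.5 hpf also includes RNA made earlier. The captured fraction may hold stored RNA too, which was not tested, and the share of each member's value that was newly made was not measured.

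The first question was which chromatin genes changed in untreated embryos as the genome became active. Few did. Between 5 and 7.5 hpf, kat7.S, kmt5a.L and brd2.S rose and kmt2e.S and dnmt1.L fell, and the other 132 members did not pass the test. These are 3 higher and 2 lower of 137 members, or 2.19% and 1.46%, beside 5.9% and 0.715% of all 19149 genes tested (limma on log2(value + 1), Benjamini-Hochberg adjusted p under 0.05 over all genes). Fold changes on this scale understate the change of low genes. Groups did not overlap, with the 7.5 hpf libraries higher, in 36 members (26.3%, beside 25.6% of all genes) and with them lower in 28 (20.4%, beside 20.5%). At an unadjusted p under 0.05 there were 14 higher and 7 lower members (10.2% and 5.11%, beside 12.8% and 6.44%). The median log2 fold change was 0.02, beside 0.03 for all genes. Of 137 members, 130 moved by less than 2-fold, beside 15081 of the 19149 genes tested. Members had higher values than all genes (median 541, beside 141) and smaller errors (median SE 0.195, beside 0.376). These shares are therefore not like for like.

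The counts depended on single libraries and on scaling, and so did those of all genes called. The higher count was 1 without control 7.5 hpf replicate 1, CHX replicate 1 or CHX replicate 2, and 5 without control 7.5 hpf replicate 2. The lower count was 0 without control 5 hpf replicate 1, 1 without either CHX library, replicate 1 of the 7.5 hpf controls or replicate 2 of those at 5 hpf, and 5 without control 7.5 hpf replicate 2. Scaling to equal totals shifted the median of all genes to -0.11 and gave 1 higher and 4 lower members. Scaling on oocyte transcripts shifted that median to 0.27 and gave 11 higher and 1 lower. Over all genes, the main fit called 1129 higher and 137 lower. Scaling to totals gave 1023 and 259 of all genes, and scaling on oocyte transcripts 1612 and 39. No direction printed for a called member turned under either scaling. Omitting a CHX library leaves fold changes between the controls as they are and alters only the shared spread and its degrees of freedom. Any omission also leaves fewer degrees of freedom. A call lost on omission can therefore reflect a weaker test as well as dependence on that library. With no intensity trend in limma's prior, no member was called in any comparison.

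The acetyltransferase gene kat7.S had the largest called change among members in controls over time. Kat7, also known as Hbo1, acetylates histones H3 and H4 and acts in replication licensing. Values were 737 and 999 at 5 hpf, 2089 and 2494 in the 7.5 hpf controls and 1994 and 1969 under CHX. Both later groups lay above both 5 hpf libraries. The log2 fold change from 5 to 7.5 hpf in controls was 1.41 ± 0.17 (SE, limma adjusted p = 0.000531), and the call held without any 1 library (adjusted p from 0.00119 to 0.0231). Its L copy was far lower in value, at 35 and 122, then 207 and 160, and 111 and 93 under CHX. The L difference in controls was of like size but was not called (1.46 ± 0.53, adjusted p = 0.156). brd1.L, which encodes a scaffold of Kat7 complexes, stood at 315 and 347, then 615 and 481, with 517 and 477 under CHX. Its difference of 0.72 ± 0.20 narrowly missed the threshold (adjusted p = 0.0563).

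Of the 14 acetyltransferase members, 7 were lower without overlap in the 7.5 hpf controls (50.0%, beside 20.5% of all genes). Another 4 were higher without overlap (28.6%, beside 25.6%), and the class median was -0.19, beside 0.03 for all genes. Among those other than kat7, the genes for the coactivators p300 and CBP were high and little changed. ep300.L, the most abundant of the 14 acetyltransferase members, stood at 5652 and 6051, 6499 and 7310, and 6440 and 6219. Its control difference was 0.24 ± 0.13 and that of ep300.S -0.24 ± 0.13. The crebbp copies differed by -0.23 ± 0.12 and -0.30 ± 0.14. The lowest fold change of all members was that of kat2b.S (-1.19 ± 0.84), a low gene at 56 and 21, then 11 and 19, with a wide error.

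Bromodomain readers recognise acetylated histones. brd2.S, a gene of the BET family that recruits transcription machinery to acetylated chromatin, had values of 437 and 342 at 5 hpf, 1025 and 621 in the 7.5 hpf controls and 1514 and 1045 under CHX. Every later library exceeded both 5 hpf libraries. It rose in controls by 1.04 ± 0.26 on the log2 scale (limma adjusted p = 0.0392), a call that held only when control 7.5 hpf replicate 2 was the library left out (0.0966 to 0.282 for the other 5) and that was lost under scaling to totals. brd3.S, another gene of that family, stood at 4355 and 3617, then 3946 and 3265, then 3300 and 2883; its control difference was -0.14 ± 0.15 and was not called.

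Of 29 members classed by symbol as histone methyltransferases, 1 was called higher and 1 lower in controls. Each is 3.45%, beside 5.9% of all genes higher and 0.715% lower. kmt5a.L encodes the enzyme that monomethylates lysine 20 of histone H4, a mark tied to the cell cycle. It had values of 357 and 234, then 717 and 492, and 487 and 477 under CHX. The groups of controls did not overlap, and the CHX libraries lay just under the lower control. It rose by 1.04 ± 0.25 (limma adjusted p = 0.0345). Leaving out either CHX library, replicate 1 of the 7.5 hpf controls or replicate 2 of those at 5 hpf ended the call (0.15 to 0.251), as did scaling to totals. kmt5a.S, with higher values of 1569 and 1237, then 1698 and 2026, differed by 0.41 ± 0.16 and was not called.

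kmt2e.S belongs to the MLL family, and its product reads methylated lysine 4 of histone H3. Its values fell from 729 and 695 to 362 and 386 in controls, and the CHX libraries had 520 and 553. The 3 groups did not overlap, with CHX between the others. In controls it fell by 0.93 on the log2 scale (SE 0.17, limma adjusted p = 0.0072; 0.0729 without control 5 hpf replicate 1). kmt2e.L stood at 446 and 497, then 511 and 458 (0.04 ± 0.18). Of the other MLL and SET1 genes none was called: kmt2a.S differed by -0.41 ± 0.14 (adjusted p = 0.129), setd1a.L, the most abundant methyltransferase member, by -0.29 ± 0.16, and kmt2d.L by 0.14 ± 0.21. setdb1.L, for an enzyme of lysine 9 of histone H3, differed by 0.01 ± 0.16. The prefix also took in setd3.L and setd3.S, whose product in mammals methylates actin; both were low, with no library above 94.

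**Figure D1:**
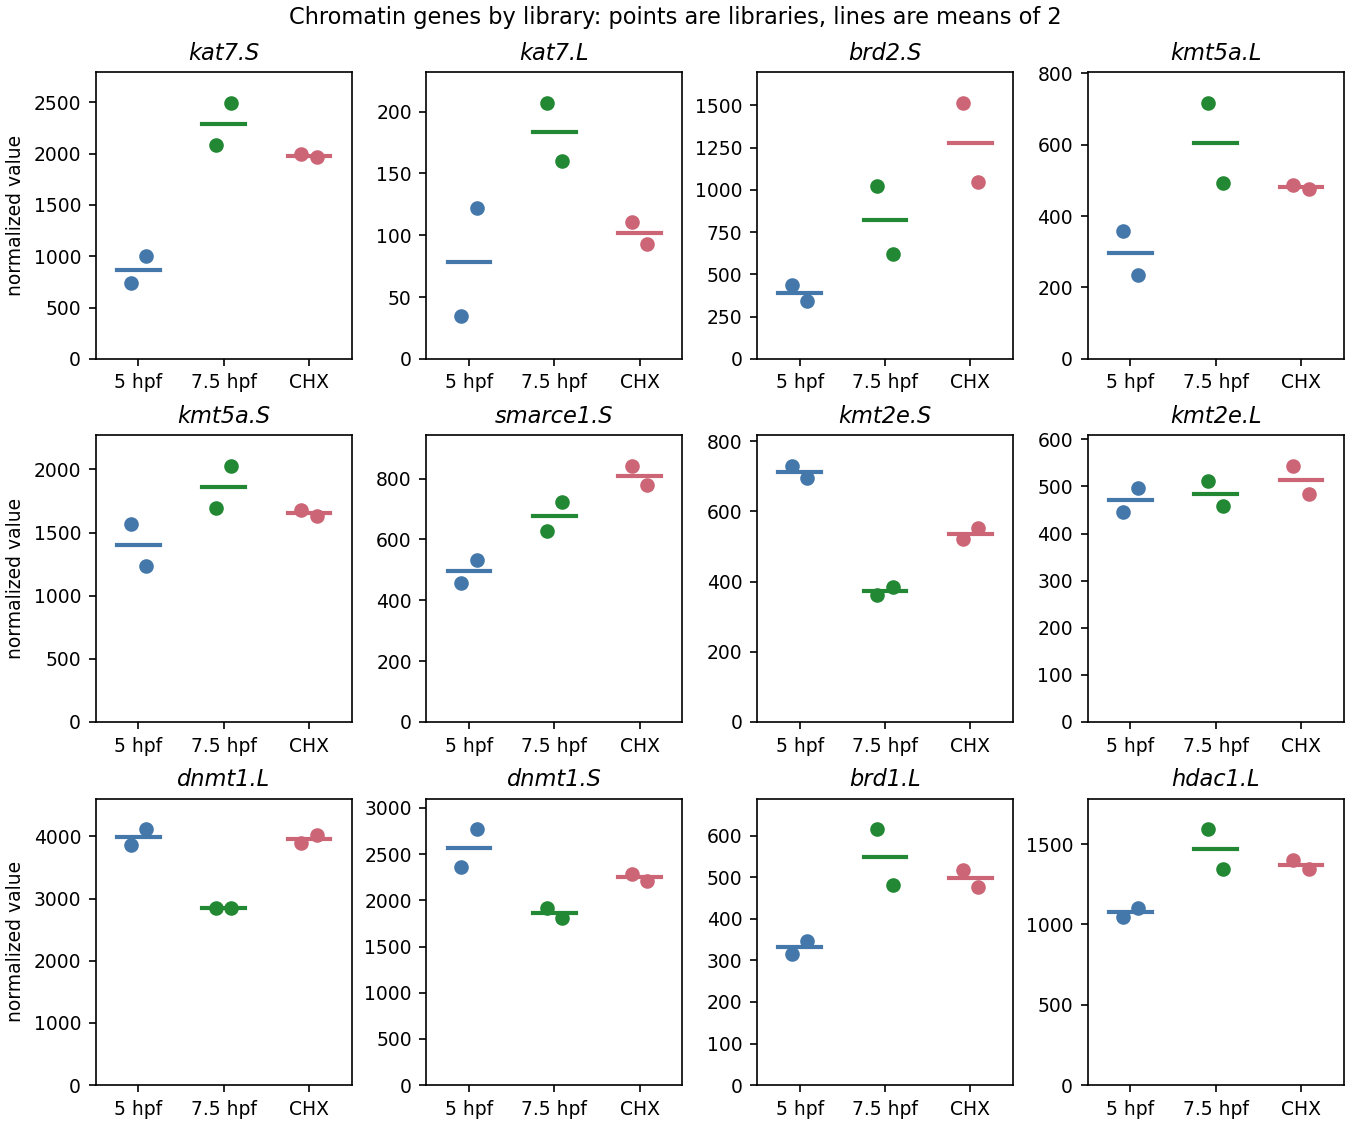
Normalized value (vertical axis, linear from 0) of 12 chromatin gene copies in the control 5 hpf, control 7.5 hpf and CHX libraries; points are libraries and lines the means of 2. kat7.S lay at 737 and 999 at 5 hpf and at 1969 or more in the other 4 libraries, whereas dnmt1.L lay at 2847 and 2853 in the 7.5 hpf controls and at 3854 or more elsewhere.

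The L copy of the maintenance DNA methyltransferase gene fell in controls and stood near its 5 hpf level under CHX. dnmt1.L had values of 3854 and 4114 at 5 hpf, 2847 and 2853 at 7.5 hpf, and 3897 and 4021 under CHX. The controls at 7.5 hpf lay below all other libraries. It fell by 0.48 on the log2 scale (SE 0.12, limma adjusted p = 0.0412), a modest change. The call was lost whichever of the 6 libraries was omitted and under scaling on oocyte transcripts. The log2 fold change itself ran only from -0.529 to -0.435 over these omissions. dnmt1.S, at 2356 and 2768, 1920 and 1808, and 2283 and 2214, had a like difference of -0.46 ± 0.14 and was not called (adjusted p = 0.08). Its CHX libraries lay below both at 5 hpf, a difference of -0.18 ± 0.14 that was not called (limma adjusted p = 0.61). For tet3, whose product oxidises methylcytosine, tet3.L went from 148 and 150 to 74 and 149 and tet3.S from 156 and 72 to 126 and 103. The tet3 groups overlapped in controls.

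The polycomb complex PRC2, which methylates lysine 27 of histone H3, had 7 members and no call. Its catalytic gene ezh2.L stood at 971 and 1098, 1104 and 1022, and 1222 and 1089, a control difference of 0.04 ± 0.15. suz12.L and suz12.S, for a core subunit, differed by 0.12 ± 0.15 and 0.02 ± 0.15. Histone demethylases had 24 members, no call and a median of -0.04, beside 0.03 for all genes. With 5.9% of all genes called higher and 0.715% lower, classes of such sizes can lack calls without differing from other genes. kdm6b.L, for an eraser of the PRC2 mark and the most abundant of them, stood at 3489 and 3441, 3706 and 3422, and 3125 and 3086. The lowest unadjusted p values among demethylases belonged to kdm8.L (-0.55 ± 0.21, adjusted p = 0.188) and kdm5c.L (-0.41 ± 0.16, adjusted p = 0.195).

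Deacetylases, 15 members, also had no call, beside 5.9% of all genes higher and 0.715% lower. hdac1.L, for the class I enzyme of several corepressor complexes, went from 1048 and 1105 to 1592 and 1348, with 1402 and 1343 under CHX. The control groups did not overlap, but 0.45 ± 0.14 did not pass (adjusted p = 0.108), and the hdac1.S controls overlapped with a difference of -0.01 ± 0.19. hdac5.S stood at 59 and 139, then 197 and 210 (1.16 ± 0.41, adjusted p = 0.141). Its L copy, low in value, went the other way, from 39 and 28 to 24 and 18 (-0.64 ± 0.70, limma adjusted p = 0.67). hdac6.L, whose product in mammals deacetylates tubulin, was at 812 and 936, then 673 and 647 (-0.40 ± 0.16, adjusted p = 0.201).

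ATP-dependent remodelers had no call in controls, beside 5.9% of all genes higher and 0.715% lower. Of 19 members named smarc, for SWI/SNF and ISWI proteins and relatives, none was called in controls; the median was 0.20, beside 0.03 for all genes. Without overlap, 8 were higher (42.1%, beside 25.6% of all genes) and 2 lower (10.5%, beside 20.5%). The ISWI ATPase gene smarca5.S stood at 2293 and 2361, then 3169 and 3112, and 3242 and 2754 under CHX (0.43 ± 0.13, adjusted p = 0.0883), and smarca5.L differed by 0.34 ± 0.14. The SWI/SNF ATPase gene smarca4.S, at 4504 and 4763, 3814 and 4397, and 4483 and 5116, differed by -0.18 ± 0.14. The 12 CHD members had a median of 0.10 and a range of -0.12 to 0.34. chd7.S, the most abundant of them, stood at 4063 and 3931, then 3755 and 4566, and the NuRD ATPase gene chd4.L differed by 0.02 ± 0.12. All 3 members of FACT, a chaperone that opens nucleosomes for polymerases, had 7.5 hpf controls above the 5 hpf libraries, as had 25.6% of all genes: ssrp1.S differed by 0.44 ± 0.16, supt16h.L by 0.36 ± 0.21 and supt16h.S by 0.22 ± 0.13, and none was called.

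**Figure D2:**
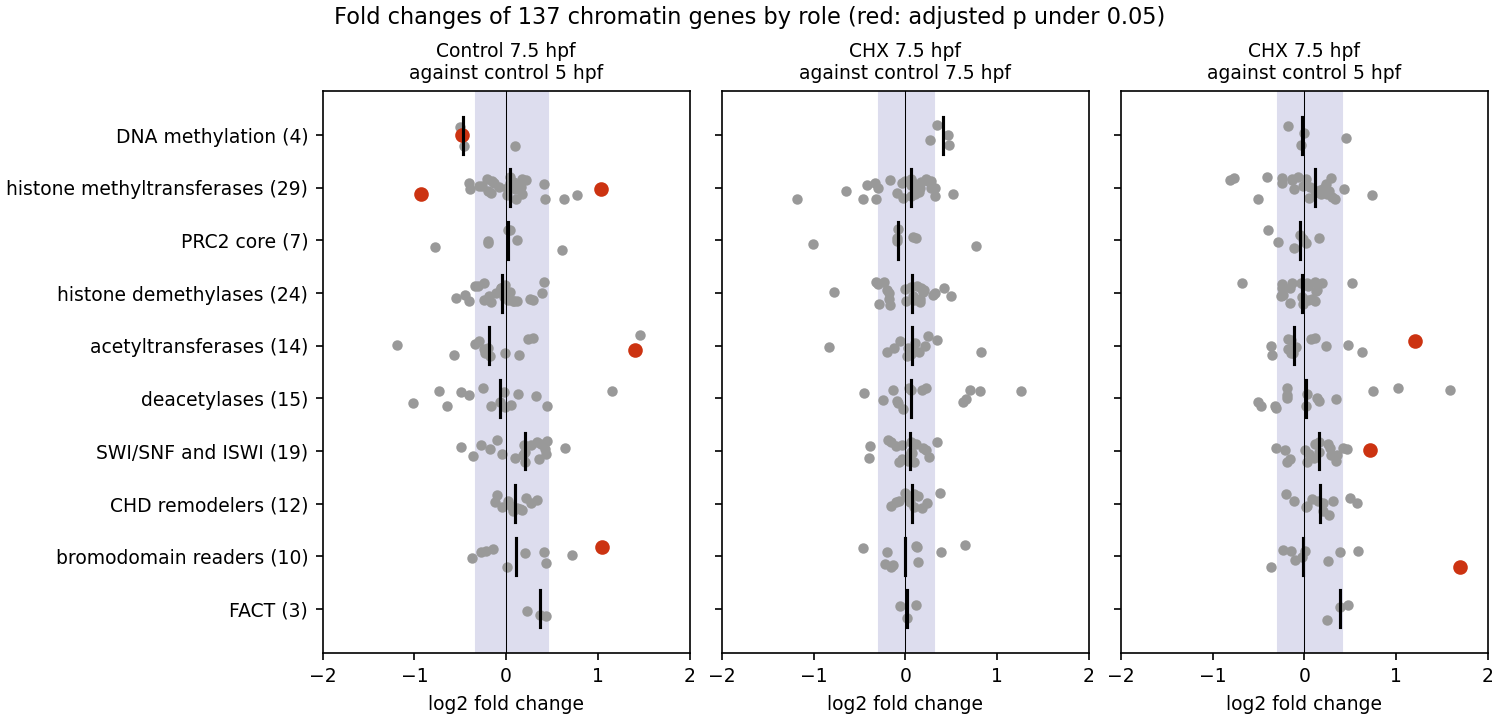
Log2 fold change (horizontal axis) of the 137 members by role in the 3 comparisons; grey points are members, red points those with a limma adjusted p under 0.05, black bars class medians, and the shaded band the middle 50% of all genes tested. The called members number 5, 0 and 3 from left to right. Within 2-fold of no change lie 130, 134 and 133 of the members, beside 15081, 16333 and 15714 of 19149 genes tested.

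The second question was which chromatin genes differed at 7.5 hpf when translation was blocked. None passed the test. Against controls of the same age, 0 members were higher and 0 lower, beside 0.198% and 0.355% of all genes (limma, adjusted p under 0.05), and the smallest adjusted p was 0.213. At an unadjusted p under 0.05 there were 3 higher and 0 lower, 2.19% and 0% of members beside 4.59% and 3.64% of all genes. Groups did not overlap, with CHX higher, in 29 members (21.2%, beside 19.6%) and with CHX lower in 23 (16.8%, beside 18.1%). The 95% interval of the difference lay wholly within 2-fold in either direction for 102 of 137 members, beside 7928 of 19149 genes tested. The median was 0.07, beside 0.02 for all genes, and -0.002 without control 7.5 hpf replicate 1.

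The 3 members with an unadjusted p under 0.05 had each been called in controls over time, and both comparisons use the same 7.5 hpf controls, so the differences are not independent. dnmt1.L was higher under CHX than in controls by 0.47 ± 0.12 (95% interval 0.20 to 0.74, limma adjusted p = 0.213). kmt2e.S differed by 0.52 ± 0.17 (adjusted p = 0.387) and brd2.S by 0.66 ± 0.26 (adjusted p = 0.532). All 4 members of the DNA methylation class, dnmt1 and tet3, had positive differences, from 0.27 to 0.47, and none was called. Differences were positive in 61.3% of members and 51.4% of all genes. kat7.S differed by -0.20 ± 0.17, with an interval of -0.58 to 0.17, and kmt5a.L by -0.30 ± 0.25, with an interval of -0.86 to 0.26. On the lower side the smallest p values were those of setd4.L, at 200 and 169 against 96 and 143 (-0.65 ± 0.31, adjusted p = 0.63), and smarcd3.S, for a SWI/SNF subunit, at 1090 and 926 against 651 and 908 (-0.39 ± 0.19, adjusted p = 0.635).

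The third question was which members still changed from the 5 hpf level with translation blocked. kat7.S, brd2.S and smarce1.S were called higher, and no member was called lower. These are 2.19% and 0% of members, beside 5.75% and 0.256% of all genes (limma, adjusted p under 0.05). At an unadjusted p under 0.05 there were 12 higher and 4 lower (8.76% and 2.92%, beside 12.1% and 3.79%). Groups did not overlap, with CHX higher, in 41 members (29.9%, beside 26.7%) and with CHX lower in 27 (19.7%, beside 21.3%). The higher count was 0 without CHX replicate 1 or without CHX replicate 2, when a lone CHX library remained, and 5 under scaling on oocyte transcripts.

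kat7.S was 1.21 ± 0.17 above its 5 hpf level under CHX (limma adjusted p = 0.00144; 0.0835 and 0.121 with a lone CHX library). brd2.S was 1.70 ± 0.26 above it, the highest fold change of any member in this comparison (adjusted p = 0.00241; 0.0575 and 0.176 with a lone CHX library). smarce1.S encodes a DNA-binding subunit of SWI/SNF. It stood at 456 and 534 at 5 hpf, 629 and 722 in the 7.5 hpf controls and 841 and 779 under CHX, with no overlap among the 3 groups. It rose by 0.71 ± 0.17 under CHX (adjusted p = 0.0331) and was 0.45 ± 0.17 higher in the controls at 7.5 hpf, which was not called. smarce1.L had higher values, at 1072 and 983, 1180 and 1307, and 1078 and 1152, and differed by 0.12 ± 0.14 under CHX (adjusted p = 0.786). The smarce1.S call was lost without either 5 hpf library or either CHX library (0.0779 to 0.361) and under scaling to totals. kmt5a.L was 0.74 ± 0.25 above its 5 hpf level and not called (adjusted p = 0.145). dnmt1.L, which fell in controls, differed by -0.01 ± 0.12 with an interval of -0.28 to 0.26, and kmt2e.S by -0.41 ± 0.17 (adjusted p = 0.252). Both comparisons share the 5 hpf libraries.

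Both copies were members for 51 genes, and L and S copies may share reads, so the split between them is uncertain. In controls over time, 1 copy was called in 4 of these genes and both copies in none. Of all single genes tested, 5.9% were called higher and 0.715% lower. The 2 copies' fold changes had the same sign in 29 of 51 genes, and their absolute difference had a median of 0.24. These pair figures were not computed over all genes with both copies, so they cannot set chromatin genes apart. The L and S copies of dnmt1 had fold changes of -0.48 and -0.46 and those of kat7 1.46 and 1.41, with 1 copy of each called. For kmt2e they were 0.04 and -0.93, and the L copy supplied 38.0% and 41.7% of the summed kmt2e value at 5 hpf, 58.5% and 54.3% in the 7.5 hpf controls, and 51.1% and 46.6% under CHX. A limma fit of the L to S ratio covered 4747 genes and was chosen after the data were seen. In controls it called the copies as changing differently in 1.62% of genes and in none of the 51. kmt2e came nearest, with a difference of 0.97 ± 0.25 (adjusted p = 0.0818), followed by ep300 (0.48 ± 0.13, adjusted p = 0.111). The difference largest in size was that of hdac5, whose L copy was low (-1.80 ± 0.80, adjusted p = 0.365). The same fit called 0% of genes for CHX against control and 1.66% for CHX against 5 hpf, with no member in either.

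**Figure D3:**
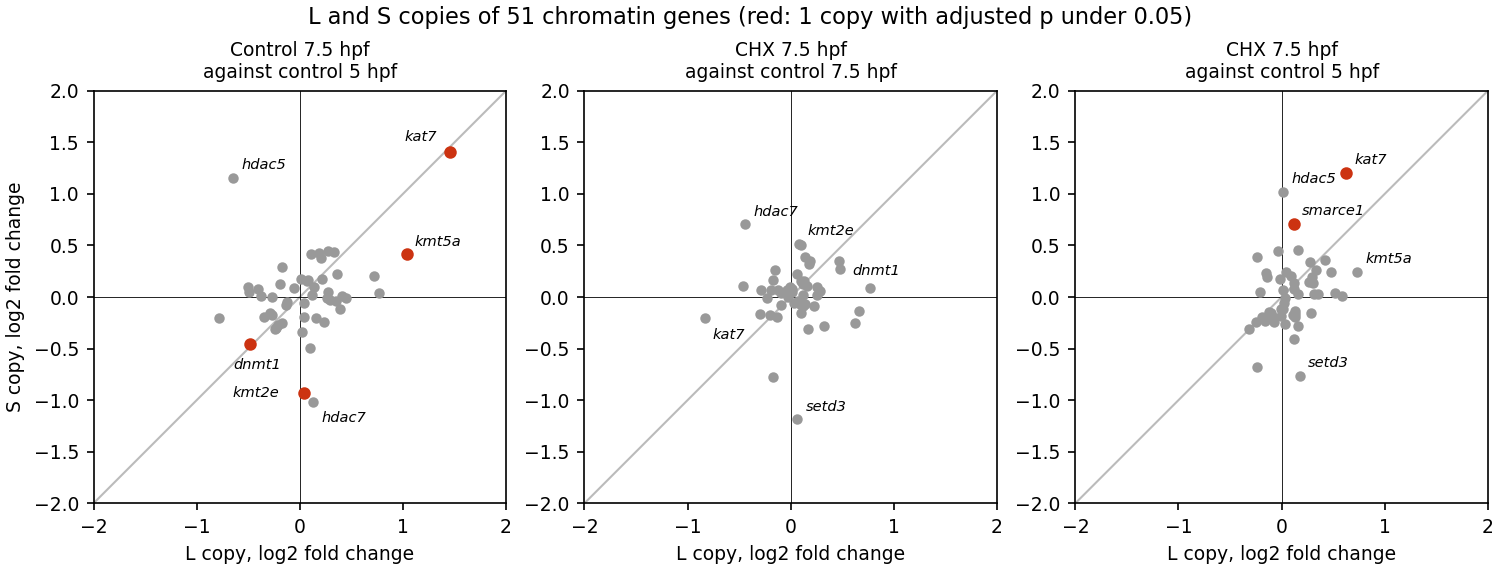
Log2 fold change of the S copy (vertical axis) against the L copy (horizontal axis) for 51 genes with both copies, in the 3 comparisons; the diagonal marks equal change, and red points are genes in which 1 copy had a limma adjusted p under 0.05. In controls kat7 and dnmt1 lie close to the diagonal, while kmt2e lies at 0.04 for L and -0.93 for S.

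The minimum on the mean left 11 matching entries without a test. Just inside it lay hdac9.L (mean 12.7) and kat2b.S (27.2). Just outside lay tet2.S (10.7), at 0 and 12, 24 and 0, and 8 and 20, and chd5.S (7.33). setd7.S, kdm4b.L, kdm3a-like.L and hdac9.S were listed at 0 in every library.

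Another 13 lists held other chromatin genes, with 372 tested entries in all. They cover partner subunits of these enzymes and also other enzymes, readers, chaperones and further factors. In controls over time 16 entries were higher (4.3%) and 2 lower, beside the 5.9% and 0.715% of all genes. Readers, high-mobility-group genes and minor demethylases had 6 higher of 38 (15.8%, beside 5.9% of all genes), all of them genes for high-mobility-group proteins, which bind nucleosomes or bend DNA. hmgn1.S went from 796 and 643 to 5019 and 3031, with 2291 and 1746 under CHX. The control libraries at 7.5 hpf lay above the CHX libraries, which lay above those at 5 hpf. It rose in controls by 2.45 ± 0.23 (limma adjusted p = 0.000108) and under CHX from 5 hpf by 1.48 ± 0.23 (0.00272; 0.0757 and 0.196 with a lone CHX library). hmgb2.L, from 5008 and 5889 to 16302 and 11252, with 9243 and 8405 under CHX, rose by 1.32 ± 0.18 (0.00113), and hmgn1.L by 1.40 ± 0.17 (0.000549). None of these 3 control calls was lost without any 1 library, nor was that of hmgb2.S. The hmgn2.L and hmgn2.S calls were each lost in 4 of the 6 fits with 1 library omitted. With no intensity trend, hmgn1.S alone of these high-mobility-group genes kept its control call.

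Histone chaperones had 4 higher of 35 (11.4%, beside 5.9%), with a list median of 0.25, beside 0.03 for all genes. Each of these 4 calls was lost in at least 2 of the 6 fits with 1 library omitted. Those of anp32e.L (0.60) and npm3.S (0.79) were lost in 5. chaf1a.L, for a subunit of the replication-coupled assembly factor CAF-1, went from 990 and 1165 to 1531 and 1727 (0.60 ± 0.15, adjusted p = 0.0345), which no longer passed with any 1 library omitted (0.0653 to 0.245). It stood at 1692 and 1735 under CHX. anp32b.L rose by 0.88 ± 0.17 (adjusted p = 0.00887; 0.0879 without control 5 hpf replicate 2 and 0.0506 without CHX replicate 2). suv39h1.L, for a writer of the lysine 9 mark of heterochromatin, was the 1 lower of 24 heterochromatin genes (4.17%, beside 0.715% of all genes). It went from 874 and 911 to 475 and 519, with 548 and 602 under CHX (-0.84 ± 0.16, adjusted p = 0.00973), and omitting CHX replicate 2, replicate 1 of the 7.5 hpf controls or either library at 5 hpf ended the call (0.0503 to 0.0858). srcap.S was the 1 lower of 41 entries (2.44%) for ISWI, INO80 and SRCAP partners, a call that held only when control 7.5 hpf replicate 2 was the library left out (0.141 to 0.208 for the other 5) and was lost under scaling on oocyte transcripts.

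The list of other methyltransferases, which takes in PR-domain genes, had 3 higher of 28 (10.7%) in controls, beside 5.9% of all genes. These were prdm1.L, prdm1.S and prdm14.S, so no gene of the list other than prdm1 and prdm14 was called. The DNA methylation list had 3 of 21 (14.3%), both gadd45a copies and zbtb33.S. In controls prdm1.S kept its call with any 1 library omitted. Of the 6 such fits, prdm1.L lost it in 4, prdm14.S and zbtb33.S in 5, gadd45a.L in 3 and gadd45a.S in 1. No call was made among 30 PRC1, 10 PRC2, 20 COMPASS, 43 NuRD, Sin3 and CoREST, 8 sirtuin, 24 SWI/SNF and 55 acetyltransferase partner entries. Of all genes, 5.9% were called higher and 0.715% lower in controls. The PRC1 list had a median of -0.27 in controls, beside 0.03 for all genes. Without overlap, 14 of its entries were lower (46.7%, beside 20.5% of all genes) and 5 higher (16.7%, beside 25.6%). Between CHX and control embryos at 7.5 hpf 1 of the 372 was called (0.269%, higher, beside 0.198% of all genes), prdm14.L, a gene for a PR-domain factor tied to pluripotency in mammals. It stood at 2 and 2 at 5 hpf, 27 and 5 in controls and 767 and 586 under CHX (5.70 ± 0.84, limma adjusted p = 0.0182; lost without control 7.5 hpf replicate 1 or either CHX library, 0.0581 to 0.809). From 5 hpf to CHX 11 were higher and 1 lower (2.96% and 0.269%, beside 5.75% and 0.256% of all genes). The list of other methyltransferases supplied 4 of the higher ones, all prdm1 or prdm14 copies and no other gene. The readers supplied 3, the DNA methylation list 2, both gadd45a copies, and the chaperones 2. The lower one was suv39h1.L. Among the prdm and gadd45a copies, prdm1.S kept its call with any 1 library omitted. prdm14.L lost it without CHX replicate 1 (0.0795), and prdm1.L, prdm14.S and both gadd45a copies lost it without either CHX library (0.0754 to 0.258). The reader and chaperone calls were also lost without either CHX library, and 4 of these 5 without 1 or both of the 5 hpf libraries (0.0757 to 0.588). The suv39h1.L call was lost without either 5 hpf or either CHX library (0.172 to 0.376).

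**Figure D4:**
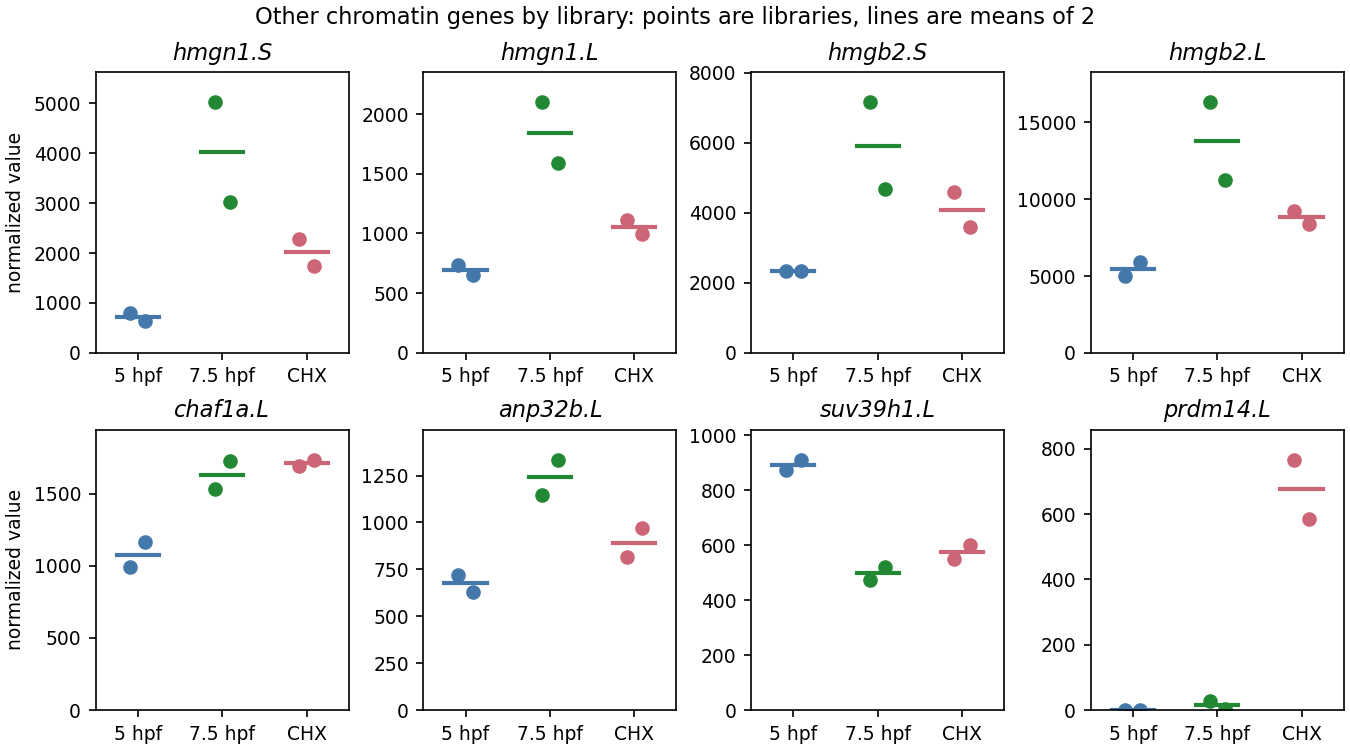
Normalized value (vertical axis, linear from 0) of 8 other chromatin genes in the control 5 hpf, control 7.5 hpf and CHX libraries; points are libraries and lines the means of 2. The hmgn1 and hmgb2 copies were highest in the 7.5 hpf controls, suv39h1.L was highest at 5 hpf, and prdm14.L reached 767 and 586 under CHX from 2 and 2 at 5 hpf.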

How the data were processed

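EU-labelled RNA of 6 whole-embryo libraries was analysed from 1 deposited table. Its values are whole numbers, treated as a score: the spacing of low values, over 1 unit a read at 5 hpf, is that of values the authors normalized and rounded, not of raw counts; per the submitters' processing notes, Salmon 0.12.0 and DESeq2 were used. Not given in the sources used here: genome build, annotation, strand setting and normalization options. A count test was therefore not used, although the design had allowed for one. Genes with a mean of at least 12 over the 6 libraries were fitted together (R 4.3.3, limma 3.58.1) after taking log2(value + 1), using an intensity trend and 3 groups (3 residual and 7.35 prior degrees of freedom). P values were adjusted by Benjamini-Hochberg over 19149 genes; called means adjusted p under 0.05. The procedure was run on simulated data with independent normal noise, which cannot show how calls depend on scaling, the intensity trend or single libraries. The labels' replicate numbers are not known to pair the libraries and were left out of the main fit. Correlations of same-numbered deviations were 0.008, -0.02 and 0.13, which with 2 libraries a group cannot settle whether they were paired. Using the replicate number as a block moved the higher and lower counts of all genes called for CHX against control. Members and gene lists were chosen with earlier results of these data known. The rule for named genes took called members and their other copy, the most abundant of each role, the 5 uncalled members with the smallest p in each direction, those nearest the minimum, and up to 3 called genes a list; any other gene named was chosen for its role after its values were seen. Of the members, 131 matched a RefSeq symbol. Alternatives covered the pseudocount, filter, scaling, replicate block, 2-group fits, the intensity trend and each library left out. No sequences are shown.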

Additional observations from a re-analysis of the deposited data

How the results depend on the processing

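For controls over time, 3 members were called higher and 2 lower (all genes: 1129 and 137). The member counts were 1 and 1 with no filter on low values (all genes: 628 and 37). They were 1 and 4 scaled to equal totals (1023 and 259) and 11 and 1 scaled on 42 oocyte genes (1612 and 39). Fitted to the 2 groups alone, the member counts were 1 and 1 (598 and 31), and with no intensity trend 0 and 0 (627 and 22). Leaving out 1 library at a time gave 1 to 5 higher and 0 to 5 lower. For CHX against 5 hpf, 3 members were higher, 5 scaled on oocyte genes, 0 with no intensity trend and 0 to 3 with 1 library left out. For CHX against control no member was called under any setting run. The median log2 fold change in controls was -0.12 scaled to totals and 0.26 on oocyte genes, beside -0.11 and 0.27 for all genes; from 5 hpf to CHX it was -0.056 and 0.24, beside -0.066 and 0.23. The median for CHX against control ran from -0.002 to 0.075 with 1 library left out. The causes were not tested. With the replicate number as a block, 4 members were higher and 2 lower in controls, 0 and 0 for CHX against control and 3 and 0 for CHX against 5 hpf, and no member's call was lost. No named gene that was called changed direction under any setting run, but the medians did: they fell below 0 under scaling to totals for both comparisons with 5 hpf, and reached -0.008, -0.002 and -0.002 in the 3 comparisons with 1 library left out. Limits are 2 libraries a group from 1 clutch, an intensity trend that every member call needs, and less precision at low values. In controls 101 of 137 members had an interval within 2-fold, beside 7239 of 19149 genes tested. Depth in reads is known only through the spacing of low values.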
